A study of Homo sapiens with 2 samples.

Results

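PTGES, the gene for microsomal prostaglandin E synthase, was 1 of the 1415 rows of a table of RNA levels from A549 cells, and 1 of the 798 protein-coding rows in it. The row was found by its gene name. The gene was chosen because the study singled it out from these same libraries, so its direction of change is not independent evidence. The table was made from 2 libraries. The control library came from unmodified cells of A549, an established line grown from a human lung adenocarcinoma. The knockout library, titled NAT10 ko1, came from A549 cells in which a pair of CRISPR/Cas9 guides had removed part of NAT10. This enzyme acetylates cytidine in RNA, which gives N4-acetylcytidine (ac4C). The knockout was 1 clone grown from a single cell, so the loss of NAT10 and other differences of that clone cannot be told apart. Each group had 1 library, and no difference below has a replicate check.

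The enzyme encoded by PTGES sits in the membranes of the endoplasmic reticulum and uses glutathione as a cofactor. It turns prostaglandin H2, which the cyclooxygenases PTGS1 and PTGS2 make from arachidonic acid, into prostaglandin E2. Among the enzymes that can do this step it is the inducible form, and A549 cells stimulated with interleukin 1 are a classic source of it. Prostaglandin E2 then leaves the cell and acts through the receptors PTGER1 to PTGER4.

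The table lists genes that differed between the libraries. RPKM corrects reads for the length of the gene and the size of the library. The study also set a p-value limit for changed genes, which genes with few reads meet only with larger ratios. The smallest difference in the table was 0.99 on the log2 scale of RPKM. Any listed gene, PTGES included, had to differ by about that much or more. Other genes were not analysed here. They include NAT10 itself, so the knockout label was not checked on its own transcript. The libraries had effective sizes of 6077933 reads (control) and 5474964 reads (knockout), a ratio of 1.11. Of 14 markers of lung epithelium, CDH1 alone was listed, with 331 control and 127 knockout reads. Of 6 fibroblast markers COL1A1 alone was listed, with 30 and 12 reads. The 5 leukocyte and 4 endothelial markers were not analysed here, so the labelled cell type was not checked further.

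PTGES (ENSG00000148344) lies on chromosome 9 from 129738331 to 129753047 of GRCh38, on the minus strand. Its coding transcript PTGES-201 has 3 exons and 1774 bases, with 35 bases before the coding part, 459 in it and 1280 after it. The other annotated transcript, PTGES-202, has 4 exons and no coding part. The exons of both cover 1896 bases, which is the length behind the deposited values. No annotated gene overlaps PTGES on either strand, so its count holds no reads of an annotated antisense partner.

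The PTGES promoter is shown because it is the stretch through which the gene is known to be induced. The 250 bases before the RefSeq start site (chr9:129753043-129753292, minus strand, GRCh38.p14) read 5′ to 3′ as follows, with capitals on the GC boxes and the overlapping EGR1 element.
PTGES promoter: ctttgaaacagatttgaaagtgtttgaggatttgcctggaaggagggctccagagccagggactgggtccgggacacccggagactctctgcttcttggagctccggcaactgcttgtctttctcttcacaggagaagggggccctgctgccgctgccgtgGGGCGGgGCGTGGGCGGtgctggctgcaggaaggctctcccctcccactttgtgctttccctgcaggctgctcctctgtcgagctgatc
The GC box GGGCGG, searched on both strands, matched at 89 and 78 bases before the start site. It is common, with at least 1 match in 42.6% of 35116 promoter stretches of the same length. The EGR1 element GCGTGGGCG, which overlaps the second GC box, matched at 82 bases before the start site and was found in 0.72% of the stretches. The TATA box TATAAA was found in 10.7% of all stretches and did not match in PTGES. The AP-1 element TGACTCA was found in 4.20% and did not match either. In the same window of PTGS2 the TATA box matched 1 time and neither the GC box nor the EGR1 element matched. These matches describe letters, not binding, and EGR1 itself was not analysed here.

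PTGES was lower in the knockout library than in the control library. Its level was 39.0 RPKM in the control, with a 95% Poisson interval from 35.5 to 42.8, and 15.1 RPKM in the knockout, with an interval from 12.9 to 17.7. These levels rested on 450 and 157 reads. The 2 intervals do not overlap, and the knockout level was 38.7% of the control level. The ratio of levels without a pseudocount was 2.58-fold lower, and the 95% Clopper-Pearson interval from the reads ran from 2.15-fold to 3.12-fold. On the log2 scale that ratio was -1.37, with an interval from -1.64 to -1.10. On the log2(RPKM + 1) scale, which understates changes of low genes, the difference was -1.31. All intervals cover the counting error of reads only, and the spread between cultures was not measured. In RNA from a whole culture, fewer expressing cells and less RNA per cell cannot be told apart.

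Among the protein-coding rows PTGES stood near the top by level. It ranked 9 of 798 by control RPKM and 13 of 798 by knockout RPKM. It also ranked 9 by the difference in RPKM, knockout minus control, which was -23.9. The median protein-coding row had 0.638 RPKM in the control and 0.488 in the knockout. With 607 reads over both libraries PTGES ranked 25 of the 744 protein-coding rows whose reads could be recovered, where the median row had 31 reads. By the width of the interval of its log2 ratio it ranked 24 from the narrowest among the 636 rows with a closed interval.

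**Figure D1:**
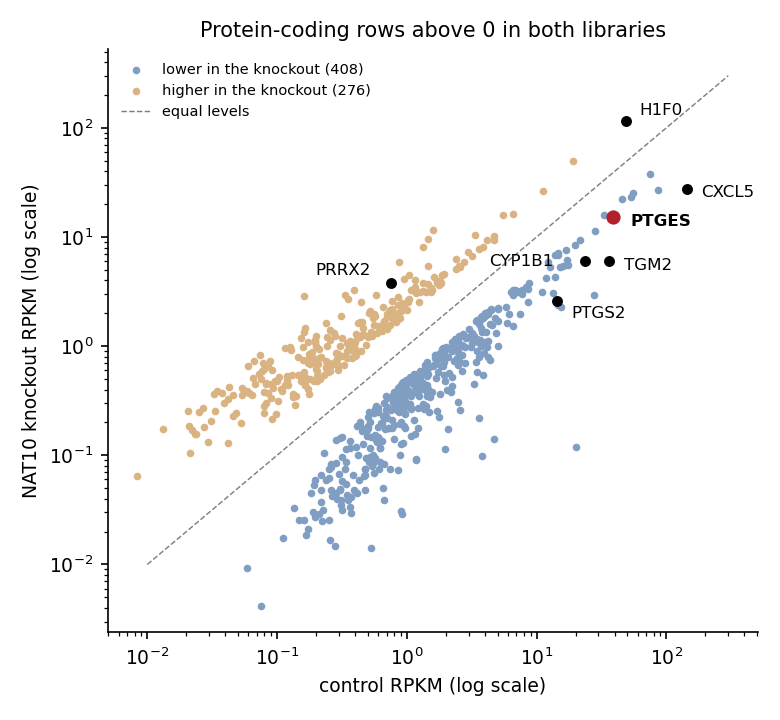
RPKM in the knockout against RPKM in the control, both on log axes, for the 684 protein-coding rows above 0 in both libraries, 408 lower (blue) and 276 higher (tan) in the knockout. PTGES (red), at 39.0 and 15.1 RPKM, sits among the highest levels, and the empty band around the line of equal levels comes from the limit on the listed differences.

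By the size of the fall PTGES was less far out. A fall was seen in 490 of the 798 protein-coding rows (61.4%), and 97 of them (12.2%) fell by more than 1 on the log2(RPKM + 1) scale. PTGES ranked 50 by that difference. Its counting interval, -1.64 to -1.10, is that of the ratio without a pseudocount. At those limits the rank would be 22 and 80, which is approximate because the scales differ. This rank depends on how low genes are treated. Without a pseudocount, and with rows at 0 in a library left out, PTGES ranked 269 of 684, because many genes with few reads have larger ratios. The p-value limit of the study adds to this, since genes with few reads meet it only with larger ratios. Among the 320 protein-coding rows with more than 20 control reads, the minimum that the study set for such genes, it ranked 41. A minimum on control reads alone favours genes that are lower in the knockout, and 80 of the 320 fell by more than 1. Among the 29 rows with a mean of at least 10 RPKM, a group formed after the values were seen, 24 were lower and 5 were higher. PTGES ranked 12 of those 29 by its fall, near their median of -1.16 on the log2(RPKM + 1) scale.

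The rows next to PTGES in control level show how firm that place is. H1F0, a gene for a linker histone, had 49.3 RPKM in the control, with an interval from 45.7 to 53.1, above the interval of PTGES. It was higher in the knockout, at 114 RPKM. AMIGO2, which encodes an adhesion protein with leucine-rich repeats, had 53.8 RPKM in the control and 23.2 in the knockout. TFPI2, a gene for a secreted protease inhibitor, had 45.8 and 22.4 RPKM, and its reads could not be recovered. Just below PTGES, the transglutaminase gene TGM2 had 36.3 RPKM in the control, with an interval from 34.6 to 38.0 that overlaps the interval of PTGES. The histone gene HIST1H4K had 33.2 RPKM on 63 reads, with an interval from 25.5 to 42.5, which also overlaps. HIST1H4K belongs to a family of near-identical copies, so its value is uncertain. PMEPA1 had 28.1 RPKM, with an interval from 26.3 to 29.9, below that of PTGES. By control level PTGES could thus not be separated from TGM2 and HIST1H4K on counting error alone.

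In the knockout TGM2 came apart from PTGES and HIST1H4K did not. TGM2 was down to 6.0 RPKM, with a log2 ratio of -2.60 against -1.37 for PTGES. The difference in log2 ratio, TGM2 minus PTGES, was -1.23, and its interval, from the odds ratio of reads, ran from -1.56 to -0.89. The 5 protein-coding rows most like PTGES, by the distance between the pairs of log2 RPKM over the 2 libraries, were HIST1H4K (0.24), TFPI2 (0.61), PMEPA1 (0.63), AMIGO2 (0.77) and TNS4 (0.91). HIST1H4K had 15.8 RPKM in the knockout, with an interval from 10.4 to 23.0, and its log2 ratio of -1.07 differed from that of PTGES by 0.30, with an interval from -0.46 to 1.03. PMEPA1, a gene induced by TGF-beta, had a log2 ratio of -1.31, which differed from that of PTGES by 0.06, with an interval from -0.26 to 0.39. AMIGO2 differed by 0.15, with an interval from -0.15 to 0.46, and TNS4, which encodes a tensin of focal adhesions, by 0.23, with an interval from -0.06 to 0.54. A likeness over 2 libraries says only that levels and ratios are close. Because the 5 rows were picked by these same values, ratios close to that of PTGES follow from the choice and test nothing.

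The enzymes before PTGES in the pathway were the next question. Of a list of 24 genes of prostanoid synthesis, from the phospholipases to the terminal synthases, 3 were in the table, and 2 of them, PTGS2 and PTGES, were lower. That share is near the 61.4% of all protein-coding rows, and PTGES was itself chosen as a lower gene. PTGS2, the inducible cyclooxygenase that supplies PTGES with its substrate, had 14.3 RPKM in the control (interval 13.1 to 15.7) and 2.60 in the knockout (interval 2.04 to 3.26), from 459 and 75 reads. Both inducible enzymes of the route to prostaglandin E2 were therefore lower in the same library. The log2 ratio of PTGS2 was -2.46, with an interval from -2.83 to -2.11. The difference PTGS2 minus PTGES in log2 ratio was -1.09, with an interval from -1.55 to -0.64. The RPKM of PTGES was 2.72 times that of PTGS2 in the control and 5.82 times in the knockout.

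PTGS1, the constitutive cyclooxygenase, went the other way at a very low level. It went from 0 control reads to 9 knockout reads, 3.33-fold higher against a floor of 3 reads in the control when the knockout reads are taken as exact. With the counting error of both libraries, the limit of its log2 ratio nearest to no change was 1.13. The level of PTGS1 in the knockout, 0.284 RPKM, was far below the 2.60 RPKM of PTGS2 in the same library. The other prostaglandin E synthases, PTGES2 and PTGES3, were not analysed here.

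Most genes were not in the table, so low counts of listed genes are not read as a result about the pathway. Of the 17891 genes whose first 459 coding bases are used further below, 450 were listed as lower and 281 as higher. Of 7 genes of prostaglandin transport and breakdown 1 was in the table. This was DHRS9, a short-chain dehydrogenase gene of retinoid metabolism, with 12 control reads and 0 knockout reads, 3.60-fold lower against a floor of 3 reads when the control reads are taken as exact. With the counting error of both libraries, the limit of its log2 ratio nearest to no change was -1.32. Of 10 prostanoid receptor genes 0 were in the table, and of the 6 genes of the membrane protein family to which PTGES belongs (MAPEG, with MGST1 and the leukotriene C4 synthase gene LTC4S) PTGES alone was. Of 33 genes of glutathione supply and transfer 1 was listed, GGT5, with 7 and 1 reads and an interval of its log2 ratio from -8.15 to 0.30.

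The neighbouring branches of arachidonic acid metabolism were mixed. Of 19 genes of the lipoxygenase, leukotriene and cytochrome routes 3 were in the table, 1 lower and 2 higher. CYP1B1, a cytochrome P450 gene that acts on fatty acids, steroids and aromatic compounds, had 23.6 and 5.98 RPKM in control and knockout, with 861 and 197 reads. Its log2 ratio was -1.98, and the difference CYP1B1 minus PTGES was -0.61, with an interval from -0.96 to -0.25. LTB4R2, a receptor gene for leukotriene B4, had 20 control reads and 45 knockout reads, with an interval of its log2 ratio from 0.53 to 2.16. ALOXE3, an epidermal lipoxygenase gene, had 11 and 21 reads, and its interval from -0.03 to 2.28 includes 0. The 3 genes thus gave no common direction.

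**Figure D2:**
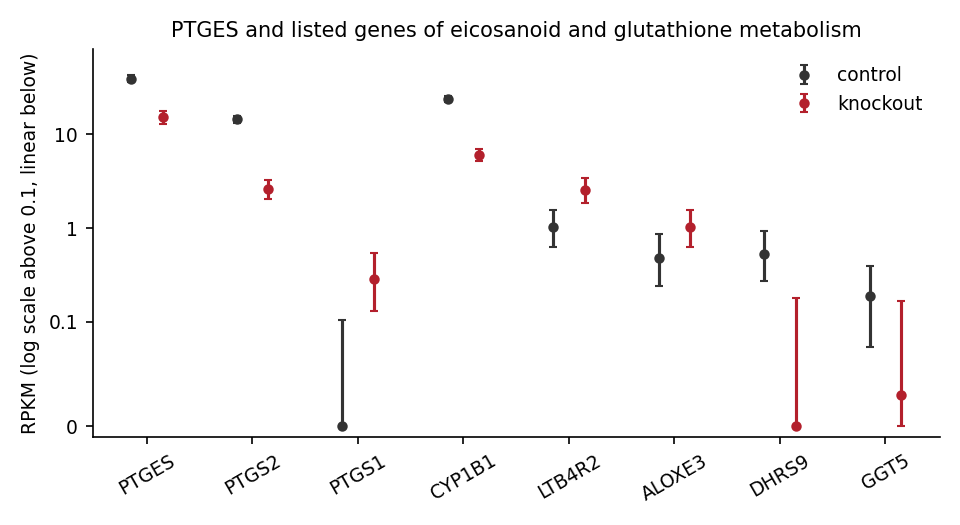
RPKM in the control (black) and the knockout (red), on an axis that is logarithmic above 0.1 and linear below, for PTGES and the other listed genes of eicosanoid and glutathione metabolism, with 1 library per group and bars for the 95% Poisson interval of the reads. Within each library PTGES lies above every other gene of the plot, and PTGS2 shows the wider gap, from 14.3 to 2.60 RPKM.

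PTGES and PTGS2 are known to be induced together by interleukin 1, so listed genes of that response were looked at. The study describes no interleukin 1 treatment of these cells, and a change of that response as a cause was not tested. Of a list of 55 genes of the NF-kB and interleukin 1 response, 12 were in the table. Of the 17891 genes whose first coding bases are used further below, 450 were listed as lower and 281 as higher. All 12 listed members were lower in the knockout, against 61.4% of the protein-coding rows. The other members, among them NFKBIA, TNFAIP3 and IL6, were not analysed here, so the count does not describe the response as a whole. The median difference of the 12 was -1.47 on the log2(RPKM + 1) scale, against -0.32 for all protein-coding rows. A fall of more than 1 was seen in 8 of the 12, against 12.2% of all protein-coding rows. Those backgrounds hold many low rows, whose changes this scale understates. All of the 12 except BDKRB1 had a control level above the protein-coding median of 0.638 RPKM. Among the 275 protein-coding rows with a mean of at least 1 RPKM, 91 fell by more than 1. The contrasts with all rows thus depend in part on level. The list was written with earlier results for some of its members known, the chemokines CXCL1, CXCL2, CXCL3, CXCL5 and CXCL8, so its count is a description. For 11 of the 12 the interval of the log2 ratio lay below 0, the exception being the bradykinin receptor gene BDKRB1 with 8 and 1 reads.

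Set against PTGES, 7 of the 12 had the larger fall on the log2(RPKM + 1) scale, against 49 of the 798 protein-coding rows. That background too holds many low rows, and PTGES ranked 48 of the 275 rows with a mean of at least 1 RPKM. For 6 of the 12 the interval of the difference in log2 ratio from PTGES lay wholly below 0, and for 0 it lay wholly above 0. The 6 were PTGS2, CXCL1, CXCL2, CXCL5, the complement gene C3 and LCN2. CXCL5, a chemokine gene, had 144 RPKM in the control and 27.6 in the knockout, and the difference CXCL5 minus PTGES in log2 ratio was -1.01, with an interval from -1.32 to -0.69. CXCL1 had 27.8 and 2.96 RPKM and a difference from PTGES of -1.86, with an interval from -2.63 to -1.15. C3 had 6.58 and 1.54 RPKM and a difference of -0.73. LCN2, a gene for an iron-trapping protein of the acute phase, had 19 and 1 reads, and the upper limit of its difference from PTGES was only -0.05.

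The other 6 could not be told from PTGES on counting error. NFKBIZ, a nuclear partner of NF-kB, had 2.31 RPKM in the control and 1.05 in the knockout, with a difference from PTGES of 0.23 and an interval from -0.45 to 0.89. IL11, a cytokine gene, had 38 and 17 reads. BDKRB2 had 59 and 21 reads, and it was in the list although it encodes the mainly constitutive bradykinin receptor. CXCL3 and CXCL8 differed from PTGES by -0.25 and -1.02 on the log2 scale, with intervals from -1.03 to 0.48 and from -2.19 to 0.01. PTGES and PTGS2 were thus lower in the same library as the chemokine genes, and PTGES fell less than the 6 genes named before.

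**Figure D3:**
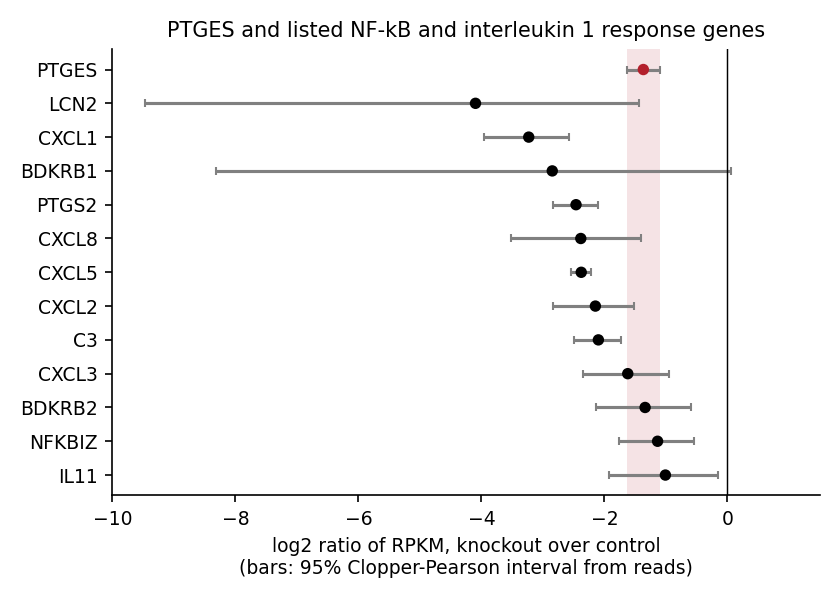
Log2 ratio of RPKM, knockout over control and without a pseudocount, for PTGES (red) and the 12 listed genes of the NF-kB and interleukin 1 response (black), with bars for the 95% Clopper-Pearson interval from the reads and a band at the interval of PTGES from -1.64 to -1.10. All 13 points lie left of 0, and those of LCN2 and BDKRB1 have the widest bars.

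The genes around PTGES on chromosome 9 were looked at for a shared direction. Within 500 kb on either side, 34 genes are annotated with PTGES included, 12 of them protein-coding, and 2 were in the table. The other was PRRX2, a homeobox gene of mesenchyme on the plus strand, from 129665641 to 129722674, whose end is 15656 bases from the end of PTGES. PRRX2 had 6 control reads and 27 knockout reads, or 0.753 and 3.76 RPKM. Its log2 ratio was 2.32, with an interval from 1.01 to 3.89. This single listed neighbour was higher in the library in which PTGES was lower. A single gene with few reads gives no direction for the region. Most genes were not in the table, so the count of listed neighbours is not read as a result.

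The study placed ac4C sites by combining its ac4C peaks with the repeat Cxx..Cxx..Cxx..Cxx, written with dots between the triplets. PTGES is in a supplementary gene list of the study. That list is captioned as lower in expression, but its size is the one the study gives for genes with reduced ac4C. The ac4C libraries were not used here, so the letters of the PTGES coding part are given without a mark measured here. The pattern CNNCNNCNNCNN allows no gap between triplets. It is a reading of that repeat chosen here, not the study's own rule. Searched on the strand of the RNA, it matched at 8 places in the 459 coding bases of PTGES-201, which form 5 stretches. They are printed with the repeated C in capitals and positions counted from the first base of the start codon.
Stretch 1, bases 183 to 194, exon 2 (chr9:129748670-129748681): CgaCccCgaCgt
Stretch 2, bases 234 to 248, exon 3 (chr9:129739822-129739836): CatCtaCccCttCct
Stretch 3, bases 258 to 272, exon 3 (chr9:129739798-129739812): CttCgtCtaCtcCtt
Stretch 4, bases 372 to 383, exon 3 (chr9:129739687-129739698): CatCcgCtcCgt
Stretch 5, bases 405 to 419, exon 3 (chr9:129739651-129739665): CccCtgCgcCtcCat
The pattern is common. In the first 459 coding bases of 17891 genes, 85.7% had at least 1 match, the median was 4, and 30.3% had as many as the 8 of PTGES or more. C made up 36.4% of the PTGES coding bases, against a median of 26.4% in the same window of those genes. Among the protein-coding rows with such a window, 36.9% of the 450 lower and 36.7% of the 281 higher ones had at least as many matches as PTGES. In that window the count of matches in PTGES was thus above the median of genes, and a count as high had nearly the same share among lower and higher rows. The window is the whole coding part of PTGES but only the first part of longer ones. Bases outside the window were not searched, and a link between the repeat and the change in level was not tested.

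**Figure D4:**
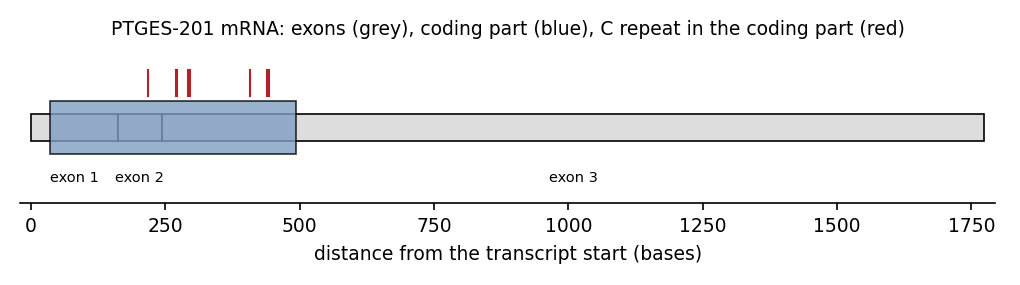
The PTGES-201 transcript drawn to scale by distance from its start in bases, with the exons in grey, the 459 coding bases in blue and the 8 matches of the C repeat in the coding part as red ticks. The matches lie in exons 2 and 3, between coding bases 183 and 419, and the transcript after it (1280 bases) was not searched.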

How the data were processed

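Total RNA of control and NAT10 knockout A549 cells was extracted with RNAiso Plus, and per the labels the libraries were prepared with SMARTer mRNA-Seq reagents. The authors deposited 1 value for each gene and library, and the file header does not name the unit. The deposited values were taken as RPKM, reads that the authors corrected for gene length and for the size of the library, because the values gave whole reads with annotated gene lengths (below). All levels, reads and intervals rest on this. The build was hg38 per the submitters' processing notes. The aligner, annotation, counting tool and strand handling are not given in the sources used here. The authors also deposited a log2 fold change, p-values and a direction for each gene, and these columns were not used. The value columns are headed WT-input and NAT10-KO-input. They were matched by these names to the samples titled Control and NAT10 ko1, which is an inference. Titles gave the groups. With 1 library in each, no test between groups was made.

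RPKM was multiplied by the exon length of the gene in GENCODE release 29 (GRCh38). Library sizes were fitted so that the products became whole reads, which held within 0.01 reads in both libraries for 1342 of 1408 genes with a length (95.3%). Differences were taken as log2(RPKM + 1), with no filter. Poisson intervals of reads, Clopper-Pearson intervals of ratios and exact conditional intervals of odds ratios between genes are at 95%. Without molecular identifiers, these intervals and the floor allow for counting error alone. A gene at 0 reads was compared with a floor of 3 reads. Read recovery and intervals were tested on simulated data. The named genes were PTGES, listed members of fixed gene lists and of the 500 kb around it, the 3 protein-coding rows on each side of it by control RPKM and the 5 nearest to it in log2 RPKM. The gene and lists were chosen with earlier results of these data known. Promoter sequence was from RefSeq and coding sequence from GENCODE, with the longest coding transcript of each gene. Analyses used Python 3.11.15, SciPy 1.17.1 and pandas 2.3.3.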

Additional observations from a re-analysis of the deposited data

How the results depend on the processing

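The log2(RPKM + 1) difference of PTGES, -1.31, was -1.36 with a pseudocount of 0.1 RPKM, -1.13 with 5 RPKM and -1.37 without one. Its counting interval, -1.64 to -1.10, is that of the ratio without a pseudocount and was not computed for the other scales. Its levels were 41.7 and 16.2 RPKM with the length of the coding transcript alone, a setting chosen after seeing the data, as was the rank among rows with more than 20 control reads. The rank of 50 by fall moved to 256 with a pseudocount of 0.1 RPKM, to 14 with 5 RPKM, to 269 of 684 without one and to 145 of 1415 rows of all biotypes. It was 48 of the 275 rows with a mean of at least 1 RPKM. A pseudocount pulls low genes toward 0, so the 97 protein-coding rows past a fall of 1 became 414 with 0.1 RPKM and 19 with 5 RPKM. They were 91 with a mean of at least 1 RPKM and 80 with more than 20 control reads. Scaling to library totals was not run, since RPKM gives effective sizes only. No paired analysis was possible because each group had 1 library.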
